A study of Mus musculus with 44 samples.

Results

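Fibroblasts that lack CD26 on their surface were compared between tumors of 2 mouse models of BRCA1-deficient triple-negative breast cancer, WB1P and WB1P-Myc. The cells are CD26-negative cancer-associated fibroblasts (CAFs), which were chosen by their sort: the En1+ gate (GFP-positive, CD26-negative) and the double- gate (negative for both). These sorts gave 17 of the 44 libraries of the series and came from 10 of its 13 mice, 5 with WB1P tumors (9 libraries) and 5 with WB1P-Myc tumors (8 libraries). WB1P tissue carried WapCre;Brca1 F/F;Trp53 F/F, and WB1P-Myc tissue carried in addition the Col1a1 invCAG-Myc-IRES-Luc allele. Wap-Cre acts in mammary epithelium, so that the deletions of Brca1 and Trp53 and the extra Myc belong to the transplanted epithelium. The sequenced hosts were female En1-Cre;mTmG mice in both groups, in which GFP marks cells of the En1 lineage. Cells were gated as EpCAM-/CD49f-/CD31-/CD45- before the sort by CD26 and GFP. A GFP-negative cell of the double- gate is not marked as a host cell by GFP. WB1P mice 12, 14, 35 and 93 gave both sorts and WB1P mouse 10 the En1+ sort alone, while WB1P-Myc mice 23, 67 and 69 gave both sorts and mice 21 and 95 the double- sort alone. Mice 23 and 69 carry the mark 8x8 in their labels, which do not say what it stands for. The study's methods use tumor dimensions of that form for its advanced stage, and no WB1P mouse has such a mark. The age of the mice is not given in the labels. Counts were summed per mouse, so that the mouse is the replicate, and the comparison is 5 against 5 without control libraries.

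Fibroblasts build and remodel the collagen matrix of a tumor and read its oxygen and nutrient supply. In low oxygen, prolyl hydroxylases of the EGLN family no longer mark hypoxia-inducible factors (HIFs) for degradation, and HIFs then bind a short DNA core near genes for glucose uptake, glycolysis, vessel growth, mitochondrial turnover and collagen hydroxylation. MYC is a transcription factor that drives growth and ribosome production. The added Myc allele belongs to the transplanted epithelium, while Myc transcripts were counted in the sorted cells of both models (below). CD26, the product of Dpp4, is a surface peptidase that divides fibroblasts into classes.

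Depth ran from 9770166 to 15055726 counts per library and from 11729411 to 29098430 per mouse. Levels are in CPM, that is counts divided by a TMM-scaled library total (edgeR, over the 10 mice), with no correction for gene length. Dpp4, the gene of CD26, ranged from 0.634 to 9.15 CPM in WB1P and from 2.25 to 15.9 CPM in WB1P-Myc mice, low in both groups. En1 had 13.3, 14.2, 20.1, 11.9 and 37.4 CPM in WB1P mice 10, 12, 14, 35 and 93 and 6.28, 11.5, 7.18, 13.1 and 9.14 CPM in WB1P-Myc mice 21, 23, 67, 69 and 95. Its groups overlapped, with a log2 fold change (WB1P-Myc minus WB1P) of -1.04 ± 0.34 (SE) at an FDR of 0.200 by edgeR. Myc itself had 231 to 363 CPM in WB1P and 271 to 462 CPM in WB1P-Myc mice, with a log2 difference of 0.05 ± 0.18 (SE) at an FDR of 0.903 by edgeR, whose sign was not stable among alternatives. The 12 fibroblast markers together had 63282 to 86006 CPM in WB1P and 46808 to 73153 CPM in WB1P-Myc mice, led by Col1a1, the gene of the main chain of collagen I.

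Markers of other cell types except pericytes were low or moderate, and some moved with the groups. In summed CPM, skeletal muscle genes reached 87.4, 56.0 and 49.0 in WB1P mice 12, 14 and 93 and at most 18.01 in any other mouse, and Myh1, Myod1 and Pax7 were under 1 CPM in every mouse. Epithelial genes had 81.4 to 264 in WB1P and 23.8 to 183 in WB1P-Myc mice, immune genes 29.3 to 198 and 31.1 to 176, and endothelial genes 64.8 to 114 and 91.1 to 275. Schwann cell genes had 18.7 to 26.4 and 16.3 to 90.3, adipocyte genes 12.4 to 81.0 and 28.1 to 179, and the 6 red blood cell genes stayed under 1 CPM in every mouse. At an unadjusted p under 0.05 by edgeR, 3 of 6 Schwann cell and 3 of 11 endothelial genes tested were higher in WB1P-Myc (8.71% of all genes). Of 6 skeletal muscle genes 4 were lower, and of 15 epithelial genes 1 (8.57% of all genes), while 13 of the 15 had a negative log2 fold change. Immune genes had 1 of 17 higher and adipocyte genes 0 of 4. Pericyte and vascular smooth muscle genes, which the gate does not remove, were abundant in both models, with 5871 CPM in WB1P mouse 10, 10244 CPM in WB1P-Myc mouse 21 and 2115 to 4853 CPM in the others. Of the 12 markers, 9 had a positive log2 fold change and Myh11, Gja4 and Rgs5 an unadjusted p under 0.05 (8.71% higher of all genes). Without the mice marked 8x8, 5 of the 12 had such a p (6.48% higher of all genes). The part of these cells in the results was not tested. In bulk libraries fewer cells of a type and less RNA per cell cannot be told apart. Some counts below are also given without WB1P mouse 10 and WB1P-Myc mouse 21 or without WB1P mice 12, 14 and 93. Without mice 10 and 21, 8.08% of all genes were lower and 6.77% higher at an unadjusted p under 0.05, and without mice 12, 14 and 93 3.72% and 2.47%.

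The models differed by few genes once all 14611 genes tested were adjusted for. edgeR's quasi-likelihood test called 6 genes (0.0411% of all tested) at a false discovery rate (FDR) under 0.05, 1 higher (0.00684%) and 5 lower (0.0342%) in WB1P-Myc, and only Mgarp (0.00684%) also passed an absolute log2 fold change over 2. Many more genes leaned: 2524 genes (17.3%) had an unadjusted p under 0.05, 1272 higher and 1252 lower. The groups of mice did not overlap for 573 genes (3.92%), 223 higher (1.53%) and 350 lower (2.40%). DESeq2's Wald test on the same sums called 603 genes (4.14%), 195 higher and 408 lower, and a limma-voom fit of the single libraries with mouse as a random effect called 162 (1.12%). All 6 genes of the edgeR test were among the calls of both. Without the 2 mice marked 8x8 edgeR called 0 genes, with 2075 at an unadjusted p under 0.05 and a smallest FDR of 0.105, so that no call holds without them. Without mouse 23 alone it called 74 genes, and without mouse 69 alone 0. The count was also 0 without WB1P mouse 12, 14 or 35 and without WB1P-Myc mouse 67. Without WB1P mouse 10 it called 1 gene, without WB1P mouse 93 2, without WB1P-Myc mouse 21 3 and without WB1P-Myc mouse 95 7.

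Agtr1a, a receptor for angiotensin II (ENSMUSG00000049115, chromosome 13, 30336441 to 30382867 on GRCm38), was the gene that rose. It had 8.56, 13.7, 12.7, 15.5 and 14.9 CPM in WB1P mice 10, 12, 14, 35 and 93 and 50.0, 30.2, 41.1, 45.2 and 31.3 CPM in WB1P-Myc mice 21, 23, 67, 69 and 95. Every WB1P-Myc mouse lay above every WB1P mouse, with means of 13.1 ± 2.74 and 39.6 ± 8.68 CPM (SD, n = 5 each) and a log2 fold change of 1.59 ± 0.19 (SE) at an FDR of 0.043 by edgeR. The difference was 1.64 (SE 0.21) on the log2 scale without the mice marked 8x8, 1.95 in En1+ and 1.15 in double- libraries.

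Tll1 (ENSMUSG00000053626, chromosome 8, 64014931 to 64206271) encodes tolloid-like 1, a protease that trims procollagens and other matrix precursors. It fell from 18.5, 17.3, 19.6, 22.1 and 16.01 CPM in the WB1P mice, in the order above, to 2.30, 6.50, 5.14, 5.52 and 6.67 CPM in the WB1P-Myc mice, with a log2 fold change of -1.83 ± 0.25 (SE) at an FDR of 0.043 by edgeR. Vwa1 (ENSMUSG00000042116, chromosome 4, 155768149 to 155774698), a matrix protein with a von Willebrand factor A domain, fell from 24.1, 29.9, 34.5, 47.1 and 29.0 CPM to 5.82, 8.10, 10.7, 10.4 and 13.5 CPM, which is a log2 difference of -1.76 ± 0.24 (SE) at an FDR of 0.043 by edgeR. For both genes the groups were far apart, and the highest WB1P-Myc mouse was at 6.67 CPM of Tll1 and 13.5 CPM of Vwa1. Rtn4rl2 (ENSMUSG00000050896, chromosome 2, 84871924 to 84886710), a member of the Nogo receptor family, fell from 17.7, 16.01, 20.4, 26.1 and 23.9 CPM to 11.2, 8.69, 7.25, 6.70 and 7.32 CPM, which is a log2 difference of -1.34 ± 0.18 (SE) at an FDR of 0.043 by edgeR.

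The other pair of called genes belongs to the response to low oxygen. Egln1 (ENSMUSG00000031987, chromosome 8, 124908587 to 124949324), the main oxygen sensor that marks HIFs for degradation and is itself induced by them, had 101, 108, 112, 129.7 and 85.5 CPM in the WB1P mice and 56.9, 65.9, 64.6, 60.8 and 59.2 CPM in the WB1P-Myc mice. It fell by 0.80 on the log2 scale (SE 0.11, edgeR FDR 0.043), and its WB1P-Myc values spanned less than 10 CPM. Mgarp (ENSMUSG00000037161, chromosome 3, 51388412 to 51396738), a mitochondrial protein known to be induced by hypoxia, had 7.37, 5.89, 7.89, 11.4 and 4.58 CPM and 2.15, 2.39, 1.41, 1.46 and 1.81 CPM and fell by 2.01 (SE 0.27, edgeR FDR 0.043). Mgarp is below the 10 CPM asked of named genes and was chosen after its values were seen. All 6 called genes kept their direction in all 21 alternatives, and each was called in 6 to 8 of them. Their FDR in the fit without the mice marked 8x8 was 0.105 to 0.124.

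**Figure D1:**
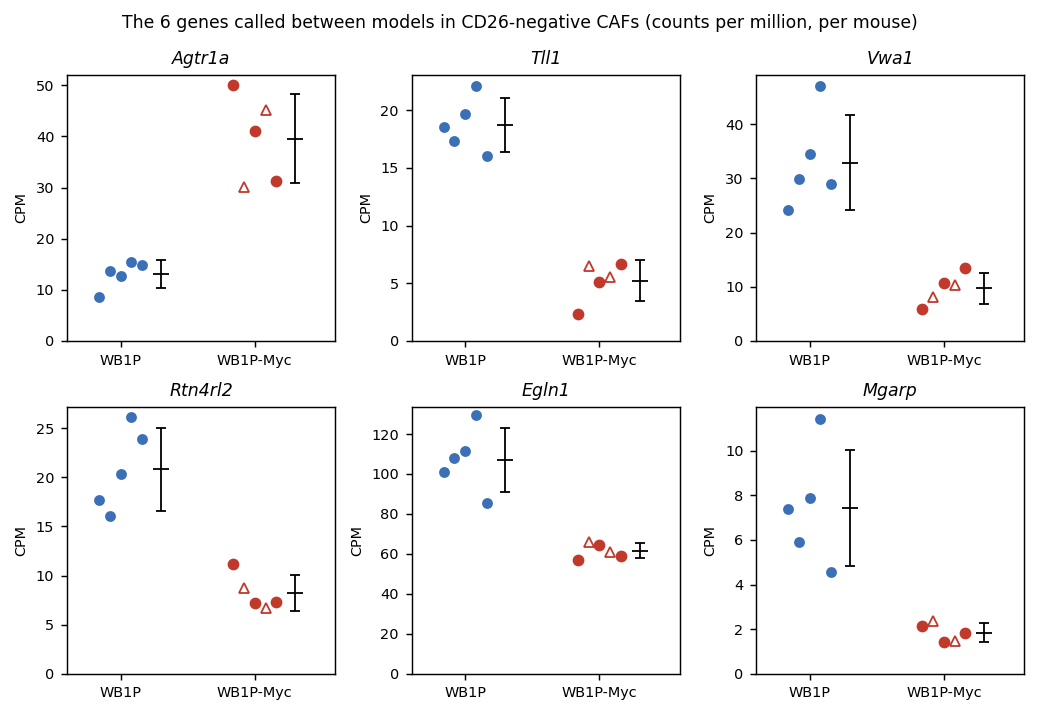
CPM (linear axis from 0) of the 6 genes called by edgeR, one point per mouse, WB1P in blue and WB1P-Myc in red; open triangles are the 2 mice marked 8x8, and bars are mean ± SD (n = 5 mice). The groups do not overlap for any of the 6 genes, and the triangles lie on the side of the other WB1P-Myc mice.

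Next in order of p came genes that did not pass the adjustment, with an FDR of 0.057 to 0.084 for 9 with higher and 0.057 to 0.064 for 6 with lower values in WB1P-Myc. Jam2, a junctional adhesion molecule, had 14.7 to 24.4 CPM in WB1P and 35.7 to 62.9 CPM in WB1P-Myc mice (log2 fold change 1.37). The phosphatase gene Dusp22 (0.71), the acyltransferase gene Agpat3 (0.93), Pmp22 (0.67), known from myelin, the splicing factor gene Crnkl1 (0.46), Bcl2l1 (0.48), which encodes the survival protein BCL-XL, and the carnitine acetyltransferase gene Crat (0.44) also had separate groups. Stum had the largest log2 fold change, 2.23, from 2.42 to 5.76 CPM to 7.28 to 36.5 CPM, and Gstm1, a glutathione transferase (1.41), was the one gene with overlap, through mouse 23 at 19.3 CPM. On the lower side stood the serotonin receptor gene Htr2b (-1.83), Kctd11 (-1.54), Tmem64 (-0.83), the smooth muscle protein gene Smtn (-0.68), and Pdk1 and Bnip3, described below. Without the mice marked 8x8 all 20 genes named by this rule kept their direction. With all mice 19 of the 20 had separate groups, and leaving mice out cannot make separate groups overlap.

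Many hypoxia response genes had lower values in WB1P-Myc. Of 22 genes of the list, all of which were tested, 12 were lower and 0 higher at an unadjusted p under 0.05, against 8.57% lower of all genes. The groups did not overlap for 9 of the 22, all lower, against 2.40% of all genes. The median log2 fold change of the list was -0.73, beside 0.03 over all genes tested. Only Egln1 passed edgeR's FDR, whereas DESeq2 called 10 of the 22 lower and 0 higher, against 2.80% lower of all genes. Members of this list and of the glycolysis list are known HIF targets, and HIFs bind the core ACGTG or GCGTG. In the RefSeq promoters on GRCm38.p6, 1 or more cores on either strand within the 250 bases before the start stood in 16 of the 17 hypoxia response genes and 16 of the 18 glycolysis genes that have an entry, against 41.5% of 27025 genes. They also stood in 15 of the 22 cell cycle genes with an entry, whose values leaned the other way (below), and in 1 of the 10 myofibroblast matrix genes. Both HIF-related lists hold many known HIF targets, so that their share is a description of the lists. A gene with several RefSeq promoters was counted where any of them held a core. The last 130 bases before the start of transcription follow for 4 genes whose values separate the groups, to show these cores beside the expression. Where a gene has several promoters, the one with the most cores was chosen. Capitals mark each ACGTG or GCGTG on the printed strand and CACGT or CACGC where the core is on the other strand.
Egln1 (chr8:124949255-124949384, minus strand): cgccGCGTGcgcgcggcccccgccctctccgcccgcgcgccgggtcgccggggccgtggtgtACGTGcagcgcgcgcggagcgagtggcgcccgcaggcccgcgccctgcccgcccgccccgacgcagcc
Pdk1 (chr2:71873094-71873223, plus strand): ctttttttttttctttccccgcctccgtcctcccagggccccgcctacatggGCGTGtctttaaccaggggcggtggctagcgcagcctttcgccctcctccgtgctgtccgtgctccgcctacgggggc
Bnip3 (chr7:138909507-138909636, minus strand): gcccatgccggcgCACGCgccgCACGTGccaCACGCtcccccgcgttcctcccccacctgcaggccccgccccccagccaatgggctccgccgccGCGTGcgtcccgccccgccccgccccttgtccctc
Slc2a1 (chr4:119108615-119108744, plus strand): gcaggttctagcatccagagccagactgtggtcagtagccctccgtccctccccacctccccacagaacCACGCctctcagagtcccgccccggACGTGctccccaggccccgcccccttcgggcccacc
These stretches hold 2 cores for Egln1, 1 for Pdk1, 5 for Bnip3 (a pair of which overlap in CACGTG) and 2 for Slc2a1. Gene positions in the text are those of the GENCODE M21 annotation, while the promoters count from RefSeq starts, so that the stretches of Egln1, Bnip3 and Slc2a1 overlap the first bases of the GENCODE genes. The match is a description of the letters and says nothing of binding in these cells, which was not measured.

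Among the members, Pdk1, a kinase that keeps pyruvate out of the mitochondria, had 47.5, 31.7, 40.2, 52.8 and 27.6 CPM in WB1P mice 10, 12, 14, 35 and 93 and 18.6, 15.9, 13.2, 12.7 and 19.2 CPM in WB1P-Myc mice 21, 23, 67, 69 and 95. Its groups did not overlap, and the log2 fold change was -1.33 ± 0.20 (SE) at an FDR of 0.058 by edgeR. Bnip3, which promotes removal of mitochondria, had 88.4, 70.8, 86.9, 127 and 52.7 CPM and 17.9, 29.5, 28.6, 23.5 and 38.6 CPM, which is a log2 difference of -1.62 ± 0.25 (SE) at an FDR of 0.064 by edgeR. All 5 WB1P mice exceeded all 5 WB1P-Myc mice, and the highest value was again that of WB1P mouse 35. Ero1l, an oxidase of the endoplasmic reticulum, had 129 to 278 CPM in WB1P and 41.5 to 77.4 CPM in WB1P-Myc mice (log2 fold change -1.49 ± 0.25 (SE), FDR 0.064 by edgeR). Vegfa, the main growth factor for blood vessels, had 657, 749.9, 657, 517 and 759.5 CPM and 251, 289, 153, 293 and 403 CPM, with WB1P-Myc mouse 67 lowest and mouse 95 highest of its group, and a log2 fold change of -1.27 ± 0.23 (SE) at an FDR of 0.065 by edgeR. Higd1a, a mitochondrial protein (-0.76), the collagen prolyl hydroxylase genes P4ha2 (-0.99) and P4ha1 (-0.70) and the lysyl hydroxylase gene Plod2 (-0.39) made up the rest of the 9. Egln3, a related oxygen sensor, had 16.7 to 68.7 CPM against 7.35 to 32.5 CPM with overlap (-1.37). Not every member went the same way, since 6 of the 22 had a positive log2 fold change, among them Stc1, Adm, Angptl4 and the metallothionein gene Mt2.

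**Figure D2:**
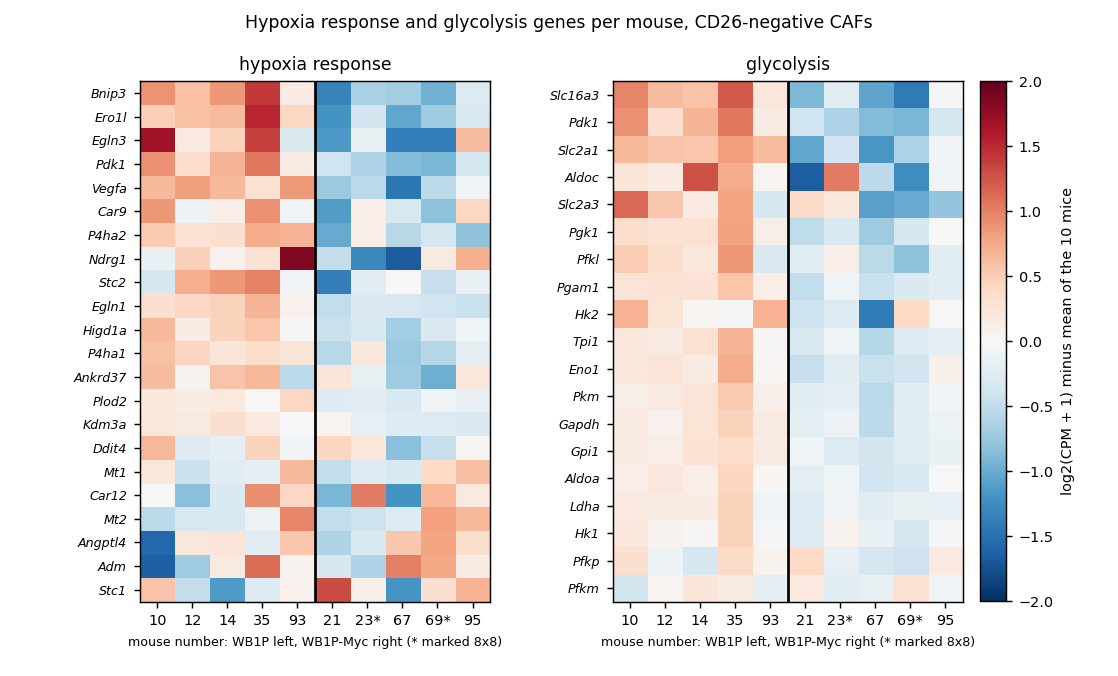
Heat map of the 22 hypoxia response genes (left) and 19 glycolysis genes (right), rows ordered by log2 fold change and columns by mouse, WB1P left and WB1P-Myc right of the line; color is log2(CPM + 1) minus the mean of the gene over the 10 mice. Most rows are red in the 5 WB1P and blue in the 5 WB1P-Myc mice, while the lowest rows of the hypoxia panel show no such split.

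The glycolysis genes leaned the same way. All 19 genes were tested, 15 of them lower (8.57% of all genes) and 0 higher at an unadjusted p under 0.05. The groups were separate for 10, all lower (2.40% of all genes), and the median log2 fold change was -0.58. edgeR's FDR called 0 of them and DESeq2's 12 lower (2.80% of all genes). At the entry of the pathway, the glucose transporter gene Slc2a1 had 360.4, 336, 332, 402 and 349.9 CPM in the WB1P mice and 109.7, 174, 99.9, 146 and 219 CPM in the WB1P-Myc mice, with a log2 fold change of -1.25 ± 0.20 (SE) at an FDR of 0.064 by edgeR. The WB1P values were within a narrow band, and every WB1P-Myc value lay below them. In the middle and lower part, Pgam1 had 68.4 to 92.1 CPM against 44.1 to 58.9 CPM (log2 fold change -0.62 ± 0.11 (SE), FDR 0.065 by edgeR), and Pgk1 218 to 351 CPM against 122 to 199.8 CPM (log2 fold change -0.76 ± 0.16 (SE), FDR 0.087 by edgeR). Gapdh, often used as a reference gene, differed by -0.47 (SE 0.11, edgeR FDR 0.127), also without overlap. Gapdh, Pgam1 and Ldha have processed pseudogenes, and reads shared with such copies make their counts less certain. At the exit, the lactate exporter gene Slc16a3 had 237, 187, 179, 283 and 141 CPM and 64.0, 101, 57.2, 44.5 and 118 CPM, which is a log2 difference of -1.42 ± 0.28 (SE) at an FDR of 0.084 by edgeR, whereas Ldha, which makes lactate, differed by -0.36 (SE 0.11) with overlap. WB1P mouse 93 was the lowest and mouse 35 the highest of the WB1P mice for Pdk1, Bnip3, Pgk1 and Slc16a3.

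The counts of both lists were computed again in each sort and without the mice marked 8x8, in fits that share mice with the comparison above. Without mice 23 and 69, 10 of the 22 hypoxia response genes and 15 of the 19 glycolysis genes were lower at an unadjusted p under 0.05, and 0 and 0 higher, against 7.27% lower and 6.48% higher of all genes in that fit. The list medians were -0.84 and -0.65. In the En1+ libraries alone, whose GFP marks them as host cells, 14 and 13 genes were lower at that p, with medians of -0.77 and -0.63. In the double- libraries alone there were 12 and 13, with medians of -0.67 and -0.56. The share of all genes lower at an unadjusted p under 0.05 was 7.03% in En1+ and 7.75% in double- libraries. For Slc2a1, the En1+ libraries ranged from 359.9 to 418 CPM in WB1P (n = 5) and 105 to 178 CPM in WB1P-Myc (n = 3), and the double- libraries from 294 to 374 CPM (n = 4) and 95.2 to 213 CPM (n = 5). Neither sort overlapped between the models. Without WB1P mice 12, 14 and 93, those with skeletal muscle counts, 12 and 15 genes were lower at an unadjusted p under 0.05, with medians of -0.86 and -0.73. Leaving out each mouse in turn gave 11 to 14 hypoxia response genes and 13 to 16 glycolysis genes lower at that p.

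**Figure D3:**
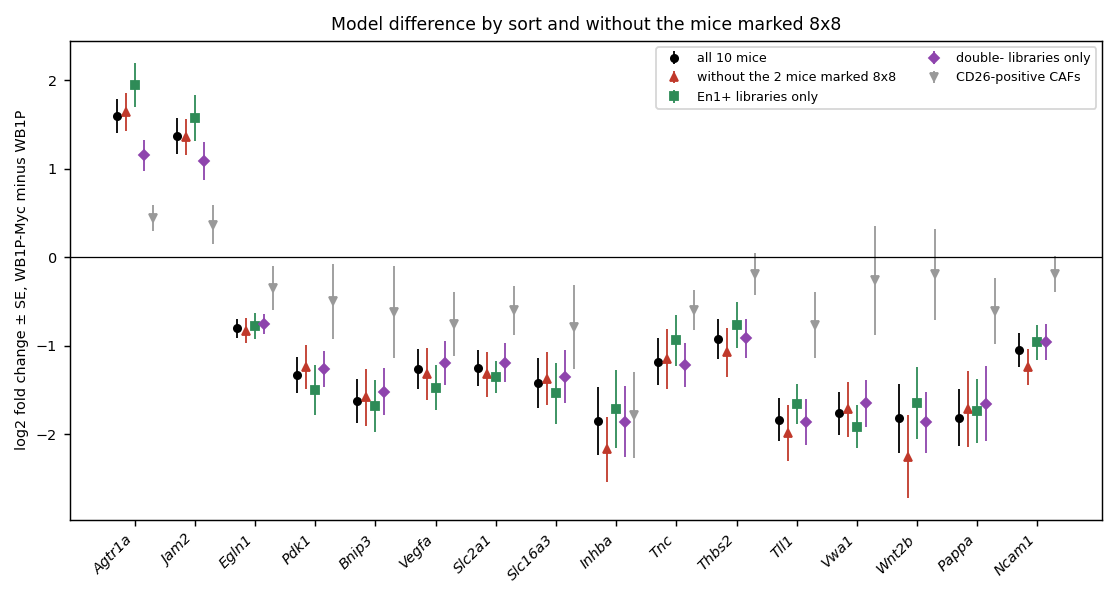
Log2 fold change ± SE (WB1P-Myc minus WB1P, edgeR) of 16 named genes in all 10 mice, without the 2 mice marked 8x8, in En1+ libraries alone, in double- libraries alone and, in grey, in CD26-positive CAFs. The 4 CD26-negative values of each gene lie on the same side of 0. The CD26-positive value is nearer to 0 than the value of all 10 mice, among the 16 genes plotted by the least for Inhba. For Inhba it is farther from 0 than the value of the En1+ libraries.

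Genes of the myofibroblast matrix leaned lower in WB1P-Myc, with no gene past edgeR's FDR. All 16 were tested, 9 were lower (8.57% of all genes) and 0 higher at an unadjusted p under 0.05, 3 had separate groups, all lower (2.40% of all genes), and the median log2 fold change was -0.73. DESeq2 called 5 lower (2.80% of all genes). Inhba, which encodes the subunit of activin A, had 1080.1, 948, 851, 1087 and 1596 CPM in WB1P mice 10, 12, 14, 35 and 93 and 136, 606, 214, 197 and 392.4 CPM in WB1P-Myc mice 21, 23, 67, 69 and 95. The groups were apart, with mouse 23 nearest to WB1P, and the log2 fold change was -1.85 ± 0.38 (SE) at an FDR of 0.087 by edgeR. Tnc, the gene of tenascin C, a matrix glycoprotein of wounds and tumors, had 6033, 9576, 8239.9, 6910.4 and 9959.8 CPM and 2364, 4037, 5768, 2936 and 2859 CPM (log2 fold change -1.18 ± 0.26 (SE), FDR 0.101 by edgeR). Thbs2, thrombospondin 2, had 3699.5 to 7162 CPM against 1989.7 to 3441 CPM (log2 fold change -0.92 ± 0.23 (SE), FDR 0.127 by edgeR), again without overlap. Lrrc15, a marker of myofibroblastic CAFs, had 1200.3 to 2587 CPM against 451 to 1401 CPM and overlapped, through WB1P mouse 10 and WB1P-Myc mice 23 and 67. Postn, periostin, differed by -0.40 (SE 0.14). The lower count of the list was 11 without the mice marked 8x8 (7.27% lower of all genes) and 6 without mice 10 and 21 (8.08%). It was 5 in a fit over all 6 groups (6.66%) and 4 with only the mice of both sorts, where 1091 of 14997 genes were lower. Without WB1P mice 12, 14 and 93 it was 2, where 3.72% of all genes were lower. The contractile genes gave no such count. Acta2, which encodes alpha smooth muscle actin, had 837 to 1552 CPM against 466 to 1405 CPM, with a log2 difference of -0.27 ± 0.26 (SE) at an FDR of 0.615 by edgeR, and Myh11 was the 1 of 14 contractile genes with an unadjusted p under 0.05, with a positive log2 fold change of 1.11.

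Collagen genes and the enzymes that modify collagen had smaller differences. Of 11 fibrillar collagen genes, 10 had a negative log2 fold change (median -0.44) and 3 an unadjusted p under 0.05 (8.57% lower of all genes). The 3 became 8 without the mice marked 8x8, where 7.27% of all genes were lower, and also 8 without mouse 23 alone. Col24a1, a minor fibrillar collagen, had 74.9, 28.4, 65.8, 44.0 and 42.9 CPM and 20.5, 19.6, 21.4, 14.5 and 7.18 CPM, with separate groups and a log2 fold change of -1.62 ± 0.33 (SE) at an FDR of 0.084 by edgeR. Col1a1 had 20866 to 28211 CPM against 13277 to 24583 CPM with overlap (log2 fold change -0.41 ± 0.22 (SE), FDR 0.348 by edgeR). Without the mice marked 8x8 its groups were separate and its log2 fold change -0.66 (SE 0.23, edgeR FDR 0.292). Of 16 genes for collagen crosslinking and processing, 6 were lower and 1 higher (Loxl4, 0.86) at an unadjusted p under 0.05 (8.57% and 8.71% of all genes), and the lower count was 11 without the mice marked 8x8 and without mouse 23 alone. The 4 with separate groups, all lower (2.40% of all genes), were P4ha1, P4ha2, P4ha3 and Plod2. All but P4ha3 are also on the hypoxia response list.

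Matrix metalloproteinases (MMPs), which cut the matrix, and their inhibitors made 1 list. Of 16 genes of the list tested, 6 were lower (8.57% of all genes) and 0 higher at an unadjusted p under 0.05, and 1 was lower without WB1P mice 12, 14 and 93 (3.72% of all genes). Mmp10 (stromelysin 2) had 6.82, 248, 274, 342 and 534 CPM in the WB1P mice and 34.3, 32.7, 37.8, 58.6 and 51.8 CPM in the WB1P-Myc mice. WB1P mouse 10 lay below all WB1P-Myc mice and the other 4 WB1P mice above them, with a log2 fold change of -2.71 ± 0.74 (SE) at an FDR of 0.161 by edgeR. Mmp13 (collagenase 3) had 187, 921, 1582, 2418 and 3803 CPM and 345, 157, 806, 504 and 225 CPM (log2 fold change -2.13 ± 0.69 (SE), FDR 0.200 by edgeR), and Mmp9 (gelatinase B) 131 to 854 CPM against 19.5 to 226 CPM (log2 fold change -2.22 ± 0.64 (SE), FDR 0.171 by edgeR). Both genes overlapped, again with WB1P mouse 10 the lowest of its group. Without that mouse, which gave the En1+ sort alone, Mmp10 was the single gene of the table that edgeR called. Mmp19 (-0.77) was the one MMP with separate groups, against 2.40% lower of all genes, and the membrane-bound Mmp14 differed by -0.54 (SE 0.19).

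Among signals between cells, WNT ligand and antagonist genes went both ways, more often lower. Of 20 WNT ligand and antagonist genes tested out of 23, 8 were lower and 2 higher at an unadjusted p under 0.05 (median log2 fold change -0.51), against 8.57% and 8.71% of all genes, so that the higher count was near the share of all genes. DESeq2 called 6 lower and 1 higher, against 2.80% and 1.34%. Wnt2b had 8.16, 20.9, 20.1, 27.3 and 23.3 CPM and 5.59, 7.59, 5.10, 8.07 and 1.81 CPM, with groups separate by less than 1 CPM and a log2 fold change of -1.82 ± 0.39 (SE) at an FDR of 0.089 by edgeR. Wnt5a, a ligand of non-canonical WNT signaling, had 140.5 to 379.9 CPM against 77.2 to 142 CPM, which touched at WB1P mouse 93 and WB1P-Myc mouse 21, and differed by -1.11 (SE 0.28). Wnt11 differed by -1.09, and Wnt10a, at 0.270 to 1.76 CPM against 0.671 to 15.3 CPM, by 2.58 in the opposite direction. Without WB1P mice 12, 14 and 93, the lower count was 5.

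Of 18 TGF-beta ligands, receptors and targets, 6 were lower and 0 higher at an unadjusted p under 0.05, against 8.57% and 8.71% of all genes. The lower count was 2 in the fit over all 6 groups (6.66% of all genes) and 3 without mice 10 and 21 (8.08%). Beside Inhba, the ligand gene Tgfb2 had 197, 184, 145, 141 and 543 CPM and 77.4, 108, 59.6, 51.5 and 139 CPM with barely separate groups (log2 fold change -1.48 ± 0.42 (SE), FDR 0.167 by edgeR), and Skil, a feedback inhibitor of the pathway, 222 to 253 CPM against 163 to 205 CPM (log2 fold change -0.40 ± 0.10 (SE), FDR 0.125 by edgeR). Tgfb1 overlapped (-0.68, SE 0.30). BMP genes went both ways, 3 higher and 4 lower of 19 at an unadjusted p under 0.05, against 8.71% and 8.57% of all genes, with the ligand gene Bmp4 at 1.94 and the antagonist gene Grem1 at -1.52, the latter with 49.0 to 110.1 CPM against 5.13 to 42.2 CPM and no overlap. Growth factor genes were also divided, 4 higher and 5 lower of 25 at that p, against the same shares. Egf, itself a ligand of the EGF receptor, was the 1 higher with separate groups (1.53% of all genes), at 0.121 to 0.541 CPM against 0.580 to 1.21 CPM. Besides Vegfa, Hbegf, another such ligand, was separate and lower, with 181, 306, 240.4, 222 and 259 CPM against 94.5, 121, 72.8, 78.2 and 164 CPM (log2 fold change -1.19 ± 0.23 (SE), FDR 0.078 by edgeR). Pappa, a protease that frees insulin-like growth factors from a binding protein, had 82.1, 67.1, 66.1, 166 and 141 CPM and 20.8, 24.8, 49.0, 29.2 and 24.9 CPM. Every WB1P mouse lay above every WB1P-Myc mouse, and the log2 fold change was -1.81 ± 0.32 (SE) at an FDR of 0.065 by edgeR. Of 19 neural guidance and adhesion genes, 6 were lower (8.57% of all genes) and 1 higher (8.71%), led by the adhesion molecule gene Ncam1 with 233, 239.6, 356, 289 and 276 CPM against 88.1, 189, 139, 131 and 127 CPM, also separate (log2 fold change -1.05 ± 0.19 (SE), FDR 0.069 by edgeR). The lower count of that list was 3 without WB1P mouse 10. With single mice left out, the BMP counts ran from 1 to 4 higher and 0 to 4 lower (0 lower without WB1P mouse 35), and the growth factor counts from 2 to 8 higher (8 without WB1P mouse 93) and 4 to 7 lower.

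Cell cycle genes leaned the other way. Of 27 genes, all tested, 26 had a positive log2 fold change (median 0.61), and 17 were higher and 0 lower at an unadjusted p under 0.05, against 8.71% higher of all genes. None passed an FDR of 0.05 in edgeR or DESeq2, and the groups overlapped for every gene, so that no single gene was called. Mcm6, a part of the replicative helicase, had 28.1, 35.7, 30.3, 46.8 and 33.2 CPM in the WB1P mice and 58.5, 46.4, 35.7, 63.3 and 67.1 CPM in the WB1P-Myc mice (log2 fold change 0.64 ± 0.19 (SE), FDR 0.179 by edgeR). Cdc20, an activator of the mitotic ubiquitin ligase, had 14.8, 14.4, 16.4, 25.3 and 12.1 CPM and 27.5, 26.7, 17.6, 34.8 and 35.5 CPM (log2 fold change 0.77 ± 0.23 (SE), FDR 0.183 by edgeR). WB1P mouse 35 lay among the WB1P-Myc mice and WB1P-Myc mouse 67 near or among the WB1P mice for both genes. Mki67, the gene of the Ki-67 antigen, had 60.3, 76.9, 81.7, 143 and 48.9 CPM against 135, 127, 73.4, 133 and 136 CPM, with WB1P mouse 35 above all WB1P-Myc mice and mouse 67 among the WB1P mice. The count of 17 varied with the mice and the fit. It was 4 without the mice marked 8x8 (6.48% higher of all genes), 3 without mice 10 and 21 (6.77%), 4 in the fit over all 6 groups (7.83%), 0 with only the mice of both sorts by edgeR (5.59%), 0 without WB1P mice 12, 14 and 93 (2.47%), and 9 to 23 with single mice left out, with 9 without WB1P mouse 14 or WB1P-Myc mouse 95, 10 without WB1P mouse 10 and 11 without WB1P mouse 93. In the En1+ libraries alone 4 and in the double- libraries alone 5 genes were higher at that p, against 5.73% and 5.40% of all genes. Of 20 Myc and ribosome biogenesis genes, by contrast, 0 were higher and 1 lower (Mxi1, a MYC antagonist), against 8.71% and 8.57% of all genes. Their median was 0.03.

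**Figure D4:**
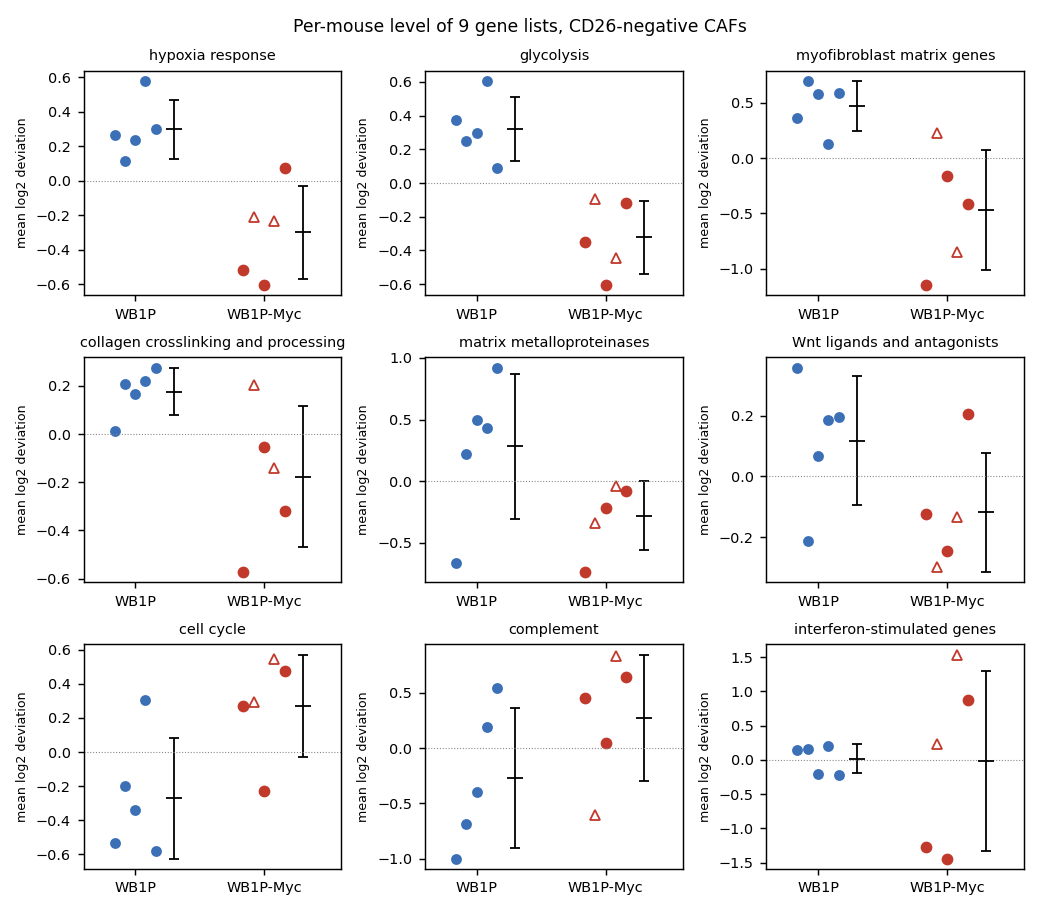
Level of 9 gene lists per mouse, as the mean over the list's genes of log2(CPM + 1) minus the gene's mean over the 10 mice; WB1P in blue, WB1P-Myc in red, open triangles for the mice marked 8x8, bars for mean ± SD (n = 5). The glycolysis and hypoxia response levels separate the models, the cell cycle levels overlap through WB1P mouse 35 and WB1P-Myc mouse 67, and the interferon levels spread most among WB1P-Myc mice.

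Interferon and antigen presentation genes did not separate the models. Of 30 interferon-stimulated genes 0 were higher and 0 lower at an unadjusted p under 0.05 by edgeR, and DESeq2 called 0, although the fold change was above 1 for 28 and the median log2 value was 0.34. The median turned to -0.25 without the mice marked 8x8. In summed CPM, the WB1P mice ranged from 883 to 1258, while WB1P-Myc mice 21 and 67 had 490.4 and 448, mouse 23 had 1217, and mice 69 and 95 had 2714 and 1785. The WB1P-Myc mice thus lay on both sides of the WB1P mice. Isg15, a ubiquitin-like protein induced by interferon, had 72.6, 72.8, 51.0, 73.9 and 48.9 CPM and 19.5, 87.6, 14.3, 156 and 114 CPM, which is a log2 difference of 0.29 ± 0.56 (SE) at an FDR of 0.809 by edgeR. Of 18 antigen presentation genes, 0 had an unadjusted p under 0.05 in either direction (edgeR), and DESeq2 called 0.

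Complement genes, which some fibroblasts produce, lay above 0 on the log2 scale for all 18 genes tested (median 0.53). Only Clu (1.597) and C7 (1.63) had an unadjusted p under 0.05, near the share of 8.71% higher of all genes. C7 had 5.31, 6.98, 10.8, 40.3 and 36.4 CPM and 47.2, 6.38, 80.0, 94.8 and 82.2 CPM, with mouse 23 as low as the lowest WB1P mice. All 12 adventitial and progenitor fibroblast genes had a positive log2 fold change (median 0.71). Of these, 3 (Limch1, Ly6c1 and Ly6a) had an unadjusted p under 0.05 (8.71% higher of all genes), and 1 without mice 10 and 21 (6.77%). With single mice left out the count ran from 0 (without WB1P mouse 10) to 6 (without WB1P mouse 93). Among 18 adipogenic and lipid-handling genes, 3 were higher and 0 lower at an unadjusted p under 0.05, against 8.71% and 8.57% of all genes. Pparg, the master regulator of fat cell formation, had 3.96, 3.79, 2.88, 3.396 and 6.66 CPM and 12.6, 9.67, 23.3, 23.3 and 5.801 CPM (log2 fold change 1.85 ± 0.39 (SE), FDR 0.087 by edgeR), and overlapped only through WB1P mouse 93 and WB1P-Myc mouse 95. Cd36, a fatty acid transporter, had 1.51 to 13.2 CPM against 5.56 to 87.6 CPM, with mice 67 and 69 far above the rest (log2 fold change 2.52 ± 0.82 (SE), FDR 0.201 by edgeR). Adipocyte markers were also highest in mice 67 and 69, at 141 and 179 summed CPM, and their part in these values was not tested. Unfolded protein response genes had a median of -0.09 with 0 of 21 at an unadjusted p under 0.05 by edgeR, and DESeq2 called 0. Dissociation and heat shock genes had 0 of 13 in both tests.

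Inflammatory genes showed no common direction. The counts below stand beside 8.57% lower and 8.71% higher of all genes at an unadjusted p under 0.05. They are not read as results about the lists. Of 19 inflammatory cytokine genes 2 were lower and 0 higher at an unadjusted p under 0.05, among them Ptgs2, which encodes the prostaglandin synthase COX-2, with 851 to 1935 CPM against 371 to 955 CPM (-1.03). CXC chemokine genes had 0 of 12 in either direction by edgeR, and DESeq2 called 0. CC chemokine genes had 3 higher and 0 lower of 15, and the highest, Ccl4, had 0.079 to 1.34 CPM in WB1P and 0.034 to 57.9 CPM in WB1P-Myc mice, of which all but mouse 95 were at 0.944 CPM or less. Without mouse 95 its log2 fold change was -0.21. Ccl4 is known from immune cells, whose marker sum among WB1P-Myc mice was also highest in mouse 95. That sum was 176 CPM, next to 168 CPM in mouse 21. The part of immune cells in the Ccl4 value was not tested. NF-kappaB targets had 1 lower of 15 (Cd44) and interferon-gamma response genes 1 higher of 17 (Irf1). Of 12 p53 targets, Gdf15 was higher (1.27) and Mdm2 lower (-0.69). Basement membrane genes had 1 in each direction of 12 and small leucine-rich proteoglycan genes 2 higher and 2 lower of 12. Every gene named in these lists overlapped between the models.

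**Figure D5:**
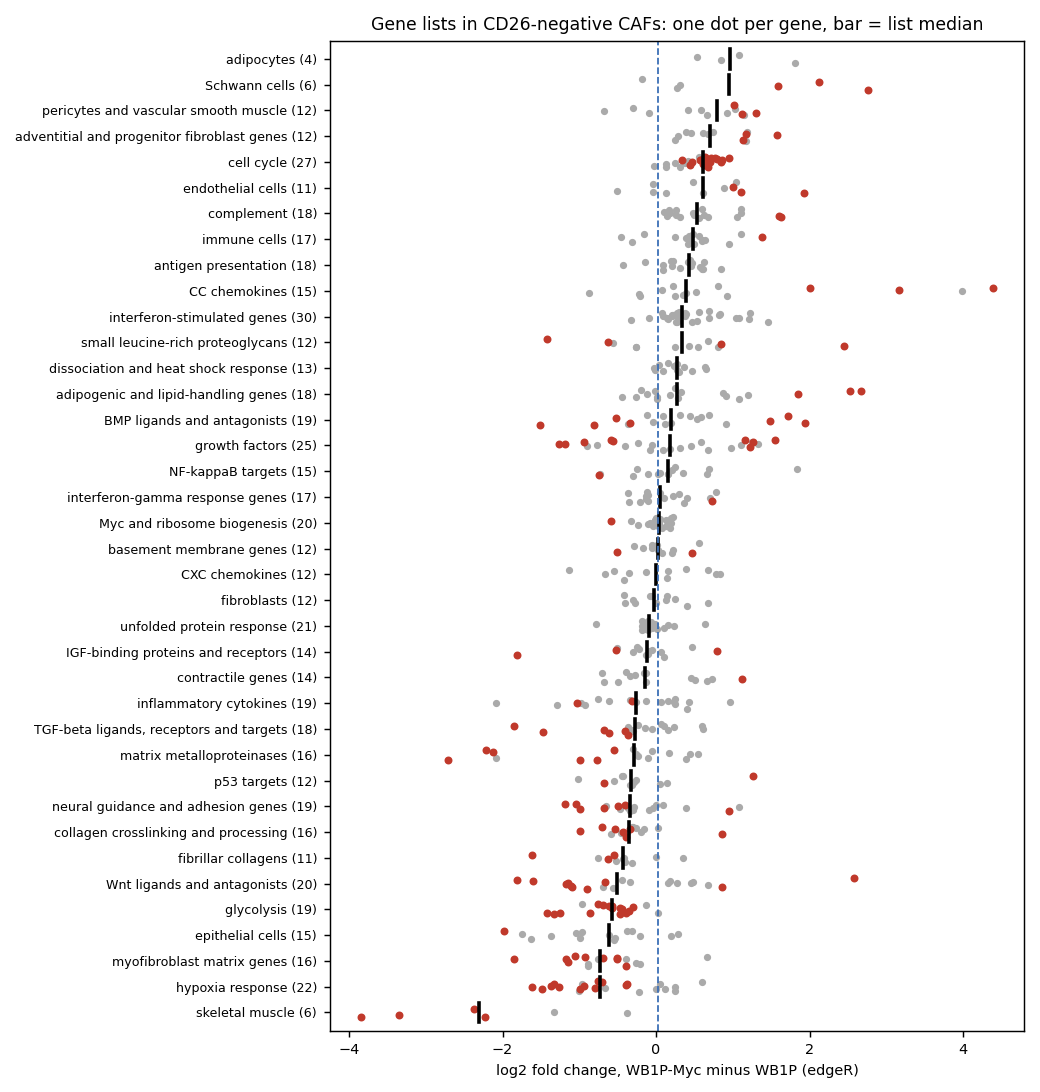
Log2 fold change (WB1P-Myc minus WB1P, edgeR) of each tested gene of 38 lists (no red blood cell gene was tested), ordered by list median (black bar), with the number of genes tested in brackets; red dots have an unadjusted p under 0.05, and the dashed line is the median over all 14611 genes. The medians of the hypoxia response, myofibroblast matrix, fibrillar collagen and glycolysis lists lie left of the line. The cell cycle median lies right of it, with those of adipocyte, Schwann cell, pericyte and adventitial fibroblast genes farther right. Skeletal muscle genes, high in 3 WB1P mice, stand at the bottom.

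The same comparison in CD26-positive CAFs, made of 4 WB1P and 5 WB1P-Myc mice, gave 0 calls among 14120 genes by edgeR, with 350 (2.48%) at an unadjusted p under 0.05. The CD26-positive libraries came from 9 of the same 10 mice. Side by side, the log2 fold changes in CD26-negative and CD26-positive CAFs were 1.59 and 0.45 for Agtr1a, -1.76 and -0.26 for Vwa1, -0.80 and -0.35 for Egln1, -1.34 and -1.32 for Rtn4rl2, and -1.85 and -1.78 for Inhba. The list medians were -0.73 and -0.39 for the hypoxia response, -0.58 and -0.41 for glycolysis, -0.73 and -0.17 for the myofibroblast matrix, and 0.61 and 0.15 for the cell cycle. The difference between the classes, tested over 15454 genes, was called for 0 genes by edgeR, with mouse as a block or without, and for 0 by DESeq2. With the block 1125 genes (7.28%) had an unadjusted p under 0.05. Without it there were 515 (3.33%), among them 3 of the 6 called genes (Agtr1a, Tll1 and Vwa1). The model difference is thus not shown to be particular to the CD26-negative class.

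Within the CD26-negative cells, the model difference was compared between the En1+ and the double- sort. edgeR called 0 of 14482 genes without mouse as a block, with 70 (0.483%) at an unadjusted p under 0.05, and DESeq2 called 0. Since the sorts of a mouse are a pair, the fit was repeated with mouse as a replicate block, which rests on the 7 mice that gave both sorts, and 15 genes (0.104%) were called, 14 with a more positive difference in En1+ cells. At an unadjusted p under 0.05 there were 907 genes (6.26%) with the block, 584 with a more positive and 323 with a more negative difference in En1+ cells. Of the 15, those named here were chosen after their values were seen. They include Abcc9, Higd1b, Apold1 and Gucy1b1, of which Abcc9 and Higd1b are markers of pericytes, and Acan, which encodes the cartilage proteoglycan aggrecan and is the 1 with a negative difference. For Abcc9 the difference was 1.17 (SE 0.16, edgeR FDR 0.039) with the block and -0.37 without it. None of the hypoxia response or glycolysis genes was among the 15.

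For reference, and outside the comparison, CD26-negative normal fibroblasts of 3 control samples had, in CPM scaled over all sums of the series, 44.1 to 54.3 of Egln1, 9.06 to 10.3 of Pdk1, 7.43 to 15.997 of Bnip3 and 57.1 to 89.8 of Slc2a1. They had 2.65 to 12.4 of Inhba, 57.4 to 627 of Tnc, 27.2 to 30.4 of Agtr1a, 1.88 to 4.82 of Tll1 and 11.3 to 16.9 of Mcm6.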

How the data were processed

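The authors deposited raw read counts for each gene, as whole numbers, from stranded, paired-end poly(A) RNA libraries aligned to GRCm38 with HISAT2 2.2.1, per the labels and the submitters' processing notes. The labels name a HiSeq and a NovaSeq instrument without saying which library ran on which. The study's methods give single-end reads for the HiSeq and paired-end reads for the NovaSeq. The part of the instrument in the results was not tested. The counting tool and the annotation are not given in the sources used here. The 17 CD26-negative CAF libraries were summed per mouse, and the 10 sums (11729411 to 29098430 counts) were tested with edgeR 4.0.16 (filterByExpr, TMM, quasi-likelihood test, two-sided) and Benjamini-Hochberg adjustment over 14611 genes, and a gene was called at FDR under 0.05. A second limit was an absolute log2 fold change over 2. SE is the log2 fold change divided by the root of F. DESeq2 1.42.0 and limma 3.58.1 (voom, mouse as a random effect, correlation 0.740) were alternatives, run in R 4.3.3. The fits were also run on simulated counts of 14611 genes, 200 of them changed by a fold of 2 or 4. edgeR recovered 48% and 83% of the changed genes and made 10 false calls. DESeq2 recovered 63% and 91% and made 49 false calls, so that it was less strict than edgeR on the simulated counts. These were drawn with dispersions estimated by edgeR and without mice set apart from their group, as some are in the real counts. The simulation therefore does not give the share of false calls in the real data.

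The gene lists, and the mice compared, were chosen with earlier results of these data known. Genes were named by these rules: Dpp4, En1 and Myc as label checks, the called genes with at least 10 CPM and separate groups, in each direction filled up to 10 genes by smallest p, and list genes as needed to describe a list. The sorts of a mouse pair by the animal that the labels give, so differences between sorts or CD26 classes were also fitted with mouse as a block. No 2 libraries of a group were copies (29 pairs, smallest chi-square per degree of freedom 17.15). Promoter sequences are from RefSeq on GRCm38.p6, with capitals for the searched motif. Alternatives left out each mouse, the mice marked 8x8 or the low-count filter, or used 1 sort. The alternatives with mice of both sorts alone, without 3 WB1P mice with skeletal muscle counts and without 2 mice with most pericyte counts were chosen after seeing the data. Some results are not reported here.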

Additional observations from a re-analysis of the deposited data

Results flagged for a closer look

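In groups of 5 mice, a mouse was set apart where its gap to the nearest other mouse exceeded 0.71 of the range of the group (Dixon's 95% limit). This was so for 18 of 222 tests, and chance gives about 1 in 20. The tests share mice and genes.

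WB1P mouse 10 had 5871 summed CPM of pericyte and vascular smooth muscle genes (2115 to 3085 in the other WB1P mice), with 2336 CPM of Rgs5 (599 to 885) and 45.2 CPM of Gja4 (9.04 to 16.4). It also had 14516 summed CPM of dissociation and heat shock genes (8058 to 9748) and 4.12 CPM of Rspo3, a WNT enhancer (1.26 to 1.57). WB1P-Myc mouse 21 had 10244 summed CPM of pericyte and vascular smooth muscle genes (2729 to 4853), 4306 CPM of Rgs5 (1345 to 2160.0), 18.01 summed CPM of skeletal muscle genes (2.23 to 5.38) and 4.598 CPM of Acta1, skeletal actin (0.157 to 0.839). Mouse 10 gave the En1+ sort alone and mouse 21 the double- sort alone, so that sort and mouse cannot be told apart for either.

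WB1P mouse 93 had 4964 summed CPM of hypoxia response genes (3574 to 3949), 543 CPM of Tgfb2 (141 to 197) and 6.66 CPM of Pparg (2.88 to 3.96). WB1P mouse 35 had 278 CPM of Ero1l (129 to 149), and WB1P mouse 14 had 387 CPM of P4ha3 (267 to 281). WB1P-Myc mouse 95 had 57.9 CPM of Ccl4 (0.0336 to 0.944). WB1P-Myc mouse 67 had 73.4 CPM of Mki67 (127 to 136) and 1.21 CPM of Egf (0.580 to 0.665), and WB1P-Myc mouse 69 had 6381 CPM of Postn (4766 to 5207).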

How the results depend on the processing

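The count of 6 called genes was 603 (195 higher, 408 lower) with DESeq2's Wald test, 162 with limma-voom, 85 with a fit over all 6 groups, 13 without the low-count filter and 3 without WB1P mice 12, 14 and 93. It was 0 without the mice marked 8x8, with only mice of both sorts, with only double- and with only En1+ libraries, and 0 to 74 when each mouse was left out in turn. Past the fold limit, 1 gene became 56 with DESeq2, 21 with the fit over 6 groups, 10 with limma-voom, 2 without WB1P mice 12, 14 and 93, 0 without the mice marked 8x8, with mice of both sorts and with either sort alone, and 0 to 16 with single mice left out. The replicate block (mouse) raised the calls of the En1+ minus double- difference from 0 to 15 and changed no call of the CD26 difference. No mouse belongs to both models, so no pairing enters the model comparison.

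Of 2009 values of 96 named genes under alternatives, 1786 kept direction and side of the threshold, 84 lost a call, 129 gained one and 10 reversed. Reversed log2 fold changes were -0.27 for Dpp4 (mice of both sorts), -0.062 for Myc without the mice marked 8x8 (-0.10 to 0.12 with single mice left out, negative without WB1P 35 and WB1P-Myc 69), 0.25 for Acta1 (without WB1P mice 12, 14 and 93), -0.38 without the mice marked 8x8 and -0.18 in limma-voom for Isg15 (-0.13 to 0.56 with single mice left out, negative without WB1P-Myc 69), and -0.43 for Ccl4 with mice of both sorts (-0.21 to 5.06 with single mice left out, negative without WB1P-Myc 95). The cause was not tested.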
